A study of Mus musculus with 16 samples.

Results

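The genes described here encode the ligands and receptors of the tumor necrosis factor (TNF) superfamily. They were taken by symbol: every RefSeq transcript that maps to a Tnfsf or Tnfrsf gene, or to Tnf, Lta, Ltb, Ltbr, Cd40, Cd40lg, Fas, Fasl, Cd27, Cd70, Eda, Edar, Eda2r, Ngfr or Relt. The rule found 47 genes with 133 transcripts among the 130343 entries of the table, which map to 35569 symbols. They comprise 18 ligand genes, 28 receptor genes and Tnfsf13os, a noncoding RNA on the strand opposite Tnfsf12 and Tnfsf13 that the symbol pattern also takes.

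RNA sequencing was performed on 16 libraries of adipose tissue (AT) from 8 male wild-type C57BL/6J mice. Each mouse gave inguinal subcutaneous AT (SAT) and mesenteric visceral AT (VAT). The 4 obese mice were fed a diet with 42% of its energy as fat and 0.2% cholesterol from 10 weeks of age for 12 to 14 months, and the 4 lean mice had a normal laboratory diet for the same time. The 4 groups (lean SAT, obese SAT, lean VAT, obese VAT) thus hold 4 libraries each, and diet is compared between mice while tissue is compared within a mouse. Visible vasculature was dissected away, and no cell type was sorted.

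Ligands of this superfamily are mostly membrane-bound trimers that can be shed, and they signal by clustering receptors on a neighboring cell. Receptors with a cytoplasmic death domain, such as TNFR1 (Tnfrsf1a) and Fas, can recruit adaptors that start apoptosis. Most of the others bind TRAF adaptors and activate NF-κB and MAP kinases. In AT, TNF is made largely by macrophages and is known for opposing insulin action and lipid storage in adipocytes, and the lymphotoxins, CD40 ligand and BAFF receptor belong to the exchange between lymphocytes and their stroma.

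Depth ranged from 1256082 counts in lean VAT of mouse 1 to 16614407 in obese SAT of mouse 3. VAT of lean mouse 1 and VAT of obese mouse 1 (2247737 counts) were the shallowest, and a single count was worth 0.0602 to 0.796 CPM (counts scaled to the library total, here without TMM scaling). On that unscaled total, a count of 0 allows a level of up to 0.181 CPM (3 counts) in the deepest library and 2.39 CPM in the shallowest, by counting error only. The member levels and floors given below are CPM with edgeR's trimmed-mean (TMM) scaling of the library sizes, so these limits are on a different scale from them. Adipocyte markers were high in all libraries (Adipoq 2713 to 7186 CPM), but lower for 9 of 19 tested transcripts in obese than in lean VAT (0 higher) and for 12 of 19 in VAT than in SAT of obese mice (2 higher). In SAT 3 of 19 were lower in obese mice, and in lean mice 4 were lower and 1 higher in VAT. Their part in the member differences was not tested. Mesothelial markers, summed over the list, were at 0.3 to 1.8 CPM in SAT and at 256 to 621 CPM in VAT. Intestinal epithelial markers summed to 5.5 to 13.7 CPM in SAT, 7.1 to 63.2 in lean VAT (highest in lean mice 2 and 4) and 7.9 to 24.5 in obese VAT.

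A few receptors carried most of the signal. The members drew 112128 counts in all, of which Tnfrsf1a held 54.1%, and the 5 most counted genes (Tnfrsf1a, Tnfsf10, Tnfrsf21, Tnfrsf1b and Tnfsf12) held 92.4%. Scaled to transcript length, Tnfrsf1a stood at 172 CPM per kilobase over the 16 libraries, followed by Tnfrsf21 (death receptor 6) at 23.2, Tnfsf12 (TWEAK) at 17.96, Tnfsf10 (TRAIL) at 17.7 and Tnfrsf1b (TNFR2) at 12.3 CPM per kilobase. Ltb (lymphotoxin beta) followed at 7.39, Fas at 3.98, Tnfrsf12a (the TWEAK receptor Fn14) at 3.70 and Tnfrsf18 (GITR) at 3.43 CPM per kilobase. Tnf itself was at 0.17 CPM per kilobase. Of the 47 genes, 44 had a count somewhere, and Cd70, Ltbr and Tnfrsf25 were listed at 0 in all 16 libraries. Reads were counted per transcript, so a gene with several annotated transcripts may have lost reads that they share: a low count for one of the 28 such genes is not a low expression of the gene. Nor is a listing at 0 read as no expression, also for Ltbr and Cd70 with 1 transcript each, since genes of broad use or of cell types present here (Pecam1, Birc2 and Tnip1) were also listed at 0 in whole groups.

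**Figure D1:**
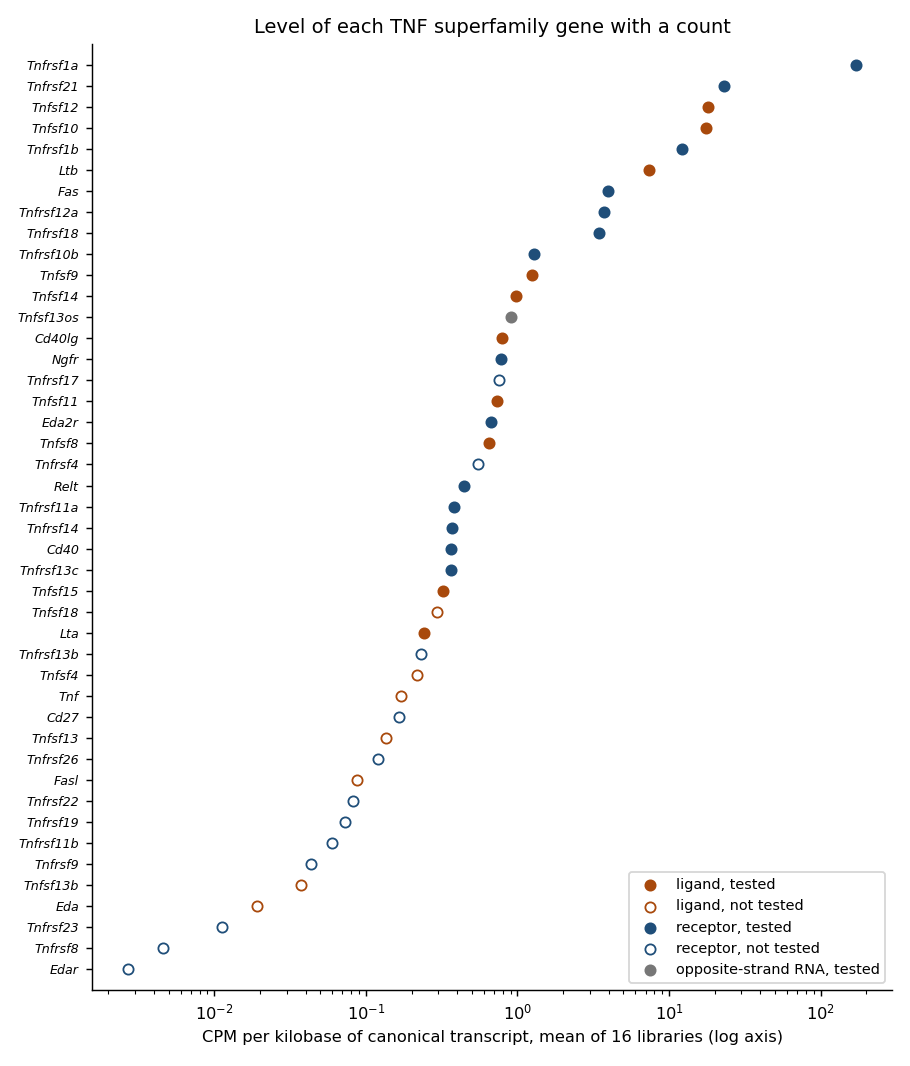
Mean level of each of the 44 member genes with a count, in CPM per kilobase of its canonical transcript over all 16 libraries, on a log axis. Filled points are genes with a transcript that passed the filter on low counts and open points those without, and Tnfrsf1a at 172 lies far to the right of the second gene, Tnfrsf21, at 23.2.

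A transcript was tested if it exceeded 1 CPM in at least 3 of the 16 libraries, as 13288 did. Among the members, 27 transcripts of 25 genes passed (10 ligand genes, 14 receptor genes and Tnfsf13os), and 22 genes did not. Of the 27, 8 passed through VAT libraries alone, with no SAT library above 1 CPM before TMM scaling, and 0 through SAT libraries alone. These 8 (Lta, Cd40lg, Tnfrsf13c, Tnfsf11, Tnfsf8, Relt, Tnfsf13os and 1 transcript of Cd40) could enter only by being high in VAT. By diet, 3 of the 27 (Relt, which is also among those 8, Tnfrsf14 and the lower of the 2 tested transcripts of Tnfrsf11a) passed through obese libraries alone and 0 through lean libraries alone. The counts below therefore describe the transcripts that passed rather than the superfamily. Differences were called at an edgeR Benjamini-Hochberg adjusted p below 0.05 over all 13288 transcripts. In whole tissue, fewer cells of a type and less RNA per cell cannot be told apart.

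The first question was how the superfamily differed between obese and lean SAT. Here 4 of the 27 transcripts were higher in obese mice and 0 were lower, against 6.2% of all transcripts tested called higher and 4.85% called lower. All 4 encode receptors: Tnfrsf1b, Tnfrsf21, Tnfrsf1a and Tnfrsf12a. None of the 10 tested ligands was called. By unadjusted p below 0.05, which 25.2% of all transcripts met, 9 members were higher and 1, a noncoding transcript of Cd40, was lower, and DESeq2 and limma voom called 5 higher and 0 lower each. All 4 obese libraries lay above all 4 lean ones for 4 of the 27, as for 9.61% of all transcripts tested. The median log2 fold change over the 27 was 0.54, beside 0.01 over all transcripts tested. Relt, Tnfrsf14 and the lower transcript of Tnfrsf11a, which entered through obese libraries alone, are in this median, so it is no support for a direction.

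In obese VAT, 6 of the 27 transcripts were higher than in lean VAT and 0 were lower, against 6.82% and 4.09% of all transcripts tested. They were the receptors Tnfrsf1b and Tnfrsf21 and the ligands Tnfsf8, Tnfsf12, Cd40lg and Ltb. At an unadjusted p below 0.05 (23.6% of all transcripts) the numbers were 13 higher and 0 lower, while DESeq2 called 5 higher and limma voom 6, with 0 lower for both. All 4 obese libraries lay above all 4 lean ones for 8 of the 27 (8.36% of all transcripts tested). The median log2 fold change was 0.84, beside 0.02 over all transcripts. Relt and the lower transcript of Tnfrsf11a, which entered through obese libraries alone, are among both the 13 and the 8, and none of the 6 called members entered that way, so the 13, the 8 and the median are no support for a direction. The called members beyond a log2 fold change of 1.5 were Tnfsf8 and Cd40lg in VAT and no member in SAT, against 2.33% and 1.5% of all transcripts called higher beyond that size.

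**Figure D2:**
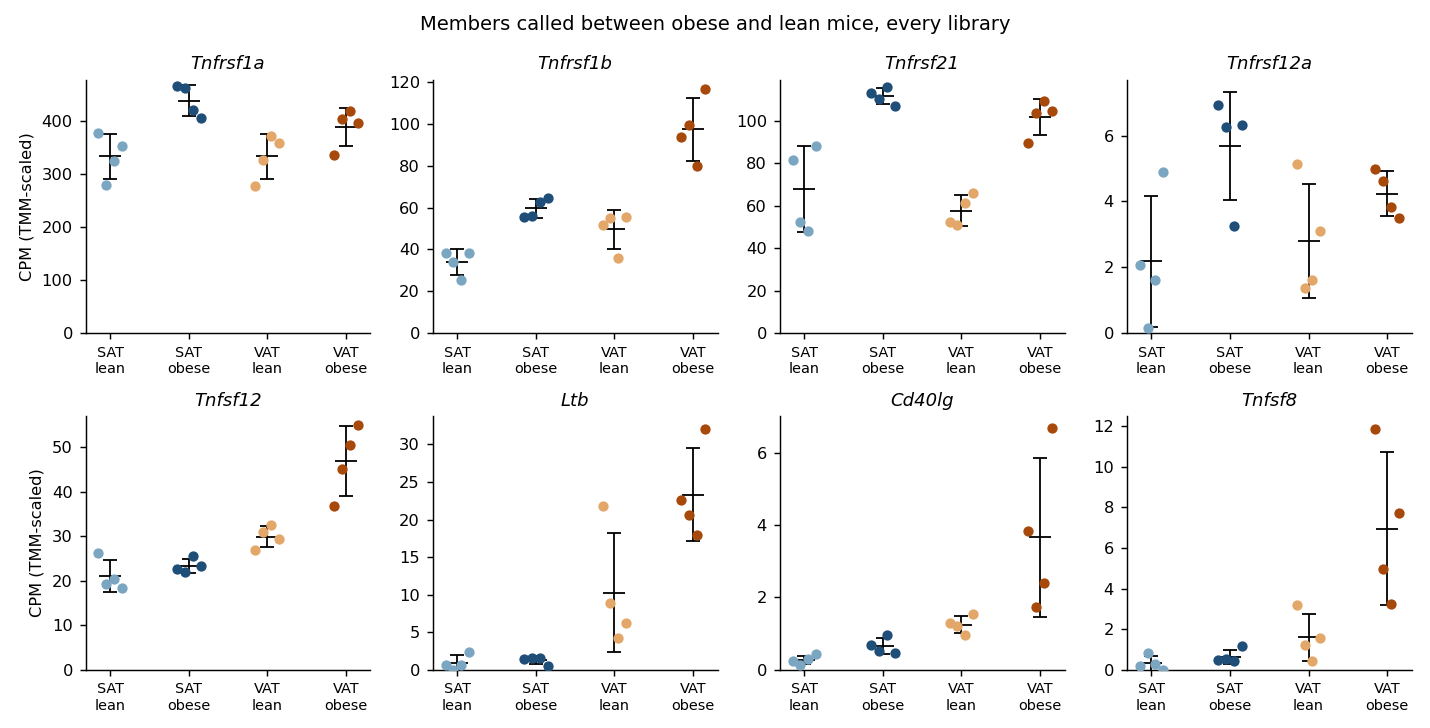
TMM-scaled CPM of the 8 members called between obese and lean mice in SAT or VAT, with 1 point per library, a horizontal bar for the mean and whiskers for the SD of 4 libraries. Tnfrsf1b and Tnfrsf21 in obese libraries lie above every lean library of the same tissue, while the Ltb and Tnfsf8 points spread widely within VAT.

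The promoters of 4 members are shown because these genes carry the diet and tissue differences. Tnfrsf1b and Tnfrsf21 were higher in obese mice in both tissues. Of the tested members, Tnfsf8 had the largest change in obese VAT. Of the tested ligands, Ltb had the largest fold between tissues in lean mice. Each line gives the 250 bases before the RefSeq start, 5′ to 3′ on the strand of the gene, placed on GRCm39 by an exact match that occurred once. Capitals mark the only match to the κB consensus, the binding motif of NF-κB, searched on both strands.
Ltb, chr17:35413233-35413482, plus strand: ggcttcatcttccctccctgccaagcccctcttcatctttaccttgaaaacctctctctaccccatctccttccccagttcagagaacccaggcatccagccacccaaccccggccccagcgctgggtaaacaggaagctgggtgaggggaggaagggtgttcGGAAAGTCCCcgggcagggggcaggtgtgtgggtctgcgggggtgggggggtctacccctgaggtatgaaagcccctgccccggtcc
Tnfsf8, chr4:63779522-63779771, minus strand: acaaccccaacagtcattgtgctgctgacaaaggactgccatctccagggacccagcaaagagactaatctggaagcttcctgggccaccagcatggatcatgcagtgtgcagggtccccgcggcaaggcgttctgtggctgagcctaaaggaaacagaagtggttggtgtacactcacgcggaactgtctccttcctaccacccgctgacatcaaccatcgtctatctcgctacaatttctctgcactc
Tnfrsf1b, chr4:144973441-144973690, minus strand: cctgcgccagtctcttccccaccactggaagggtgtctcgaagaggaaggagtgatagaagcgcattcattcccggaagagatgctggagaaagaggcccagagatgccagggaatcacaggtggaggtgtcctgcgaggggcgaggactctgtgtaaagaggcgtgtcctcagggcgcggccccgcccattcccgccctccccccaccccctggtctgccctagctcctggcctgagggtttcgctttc
Tnfrsf21, chr17:43327196-43327445, plus strand: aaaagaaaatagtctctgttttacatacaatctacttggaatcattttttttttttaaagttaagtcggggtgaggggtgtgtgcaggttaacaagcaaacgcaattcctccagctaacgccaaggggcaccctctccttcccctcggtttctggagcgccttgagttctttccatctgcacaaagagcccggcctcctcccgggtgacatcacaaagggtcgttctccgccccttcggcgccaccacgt

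In Ltb the match lies on the minus strand, with 77 bases between it and the RefSeq start. Over the whole RefSeq promoter table (GRCm38.p6, windows from 250 bases before to 50 after the start), 4.51% of 32851 promoters held a match, and 3 of the 40 promoters of 36 member genes did (Ltb, Tnfrsf8 and 1 of Tnfrsf9). A match of letters is a description and not a binding site. GENCODE places the start of all 4 genes inside the windows shown. For Ltb the GENCODE start (35413382) lies upstream of the match, so by that annotation the match is inside the gene. The Ltb gene (chromosome 17, 35413382 to 35415296, GRCm39) lies beside Tnf (35418357 to 35420983) and Lta (35422141 to 35424327), which are transcribed from the other strand, so that the 3 genes fall within 1 locus, of which Ltb and Lta were tested and called and Tnf was too low to test.

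Tnfrsf1b encodes TNFR2, the receptor without a death domain that is found mainly on leukocytes and endothelium. In SAT it stood at 38.2, 33.9, 25.2 and 38.5 CPM in the lean libraries of mice 1 to 4 and at 55.7, 56.1, 62.5 and 64.7 CPM in the obese ones. In VAT the lean libraries held 51.9, 55.0, 36.0 and 55.7 CPM and the obese libraries 93.9, 99.4, 79.9 and 117 CPM. The groups did not overlap in either tissue, and the lowest obese value exceeded the highest lean one in both. Its log2 fold change was 0.82 ± 0.16 (SE, n = 4 against 4; edgeR adjusted p = 0.00151) in SAT and 0.98 ± 0.16 in VAT (edgeR adjusted p = 2.7e-04).

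Macrophage markers moved in the same direction. The list holds 13 genes, and 7 of its 13 tested transcripts were higher in obese SAT and 10 of 13 in obese VAT. Its summed level was 1424 to 2060 CPM in lean SAT, 2327 to 3299 in obese SAT, 2492 to 3258 in lean VAT and 5648 to 8118 in obese VAT. No gene of the list was at 0 throughout a group, although Adgre1 (F4/80) did not exceed 0.331 CPM in any library. Of 8 tested endothelial transcripts, 2 (Vwf and Esam) were higher in obese SAT and 0 in obese VAT, with 0 lower in both. Of all transcripts tested, 6.2% and 6.82% were called higher. The parts of macrophage and endothelial content in the Tnfrsf1b difference were not tested.

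Tnfrsf21, a death domain receptor also known as DR6, was the other member higher in both tissues. Its SAT level was 81.8, 52.5, 48.3 and 88.3 CPM in lean mice and 113, 110, 116 and 107 CPM in obese mice. Its VAT level was 52.5, 50.9, 61.2 and 66.2 CPM in lean mice and 89.7, 104, 109 and 105 CPM in obese mice. No obese library fell within the lean range of its tissue, although lean SAT was split into a pair near 50 and a pair above 80 CPM. The rise was 0.73 ± 0.16 on the log2 scale in SAT (edgeR adjusted p = 0.00418) and 0.82 ± 0.16 in VAT (adjusted p = 0.00153). These 2 genes were 2 of the 4 SAT calls and 2 of the 6 VAT calls (33.3%), and both kept their calls with any single mouse left out.

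Tnfrsf1a encodes TNFR1, the death domain receptor through which soluble TNF acts on most cells, and was the most abundant member in all 16 libraries. Lean SAT held 377, 278, 324 and 352 CPM, and obese SAT held 465, 461, 421 and 405 CPM. Lean VAT held 277, 325, 372 and 357 CPM, and obese VAT held 336, 403, 419 and 395 CPM. Obese and lean libraries were separate in SAT and overlapped in VAT. The log2 difference was 0.40 ± 0.12 in SAT (edgeR adjusted p = 0.0321) and 0.22 ± 0.12 in VAT (adjusted p = 0.271), and the test of the difference between the tissues gave an adjusted p of 0.675. The SAT call was lost when lean mouse 2 (adjusted p = 0.137) or 3 (0.0832) or obese mouse 1 (0.0625), 2 (0.0928) or 3 (0.0602) was left out, at log2 differences of 0.32 to 0.42, and when no filter on low counts was used (0.42, adjusted p = 0.0883).

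TWEAK and its receptor were called in different tissues. Tnfrsf12a, the TWEAK receptor Fn14, which is known to be induced in injured tissue, was at 2.07, 0.141, 1.62 and 4.89 CPM in lean SAT and at 6.92, 6.25, 3.24 and 6.33 CPM in obese SAT. Lean mouse 4 lay within the obese range and lean mouse 2 rested on 1 count. VAT held 5.12, 1.38, 1.61 and 3.09 CPM in lean mice and 4.98, 4.62, 3.83 and 3.51 CPM in obese mice. There the highest value was that of lean mouse 1, on 8 counts. The change was 1.49 ± 0.45 (edgeR adjusted p = 0.0368) in SAT and 0.87 ± 0.48 (adjusted p = 0.288) in VAT. Leaving out lean mouse 1, 2 or 3 or obese mouse 1, 2 or 4 ended the SAT call (adjusted p = 0.0653 to 0.111, log2 changes 1.11 to 1.5). So did a fit of the 8 SAT libraries alone (1.48, adjusted p = 0.0508) and one without both mice of the shallowest VAT libraries (1.39, adjusted p = 0.133).

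Tnfsf12, the ligand TWEAK, was called in VAT. Its levels there were 26.9, 30.9, 32.5 and 29.5 CPM in lean mice and 36.8, 45.2, 50.5 and 55.1 CPM in obese mice, with no overlap. Its SAT levels were 26.3, 19.3, 20.4 and 18.3 CPM in lean mice and 22.5, 21.9, 25.5 and 23.4 CPM in obese mice, where the lean range enclosed the obese one. The log2 change was 0.65 ± 0.15 in VAT (edgeR adjusted p = 0.00537) and 0.14 ± 0.15 in SAT (adjusted p = 0.611). The difference between these responses, 0.46 ± 0.21, did not pass (unadjusted p = 0.04, adjusted p = 0.31). Tnfsf12 shares its locus with Tnfsf13 and the opposite-strand Tnfsf13os, and the strand setting of the counting is not given in the sources used here, so reads of overlapping exons may be divided among them.

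The remaining VAT calls were ligands of lymphocytes. Tnfsf8 (CD30 ligand, carried by activated T cells and myeloid cells) was at 3.20, 1.20, 0.429 and 1.55 CPM in VAT of lean mice and at 11.9, 4.95, 3.26 and 7.71 CPM in that of obese mice, on 4 to 90 counts per library. Every obese library was above the lean ones, the lowest obese value of 3.26 lying just over the highest lean value of 3.20. At 2.39 ± 0.50 this was the largest log2 change among the 27 tested transcripts in VAT (edgeR adjusted p = 0.00285), and it remained called with any single mouse left out. In SAT the values were 0.165, 0.844, 0.286 and 0 CPM in lean mice and 0.462, 0.530, 0.414 and 1.16 CPM in obese mice, a difference of 0.96 ± 0.70 that was not called (edgeR adjusted p = 0.429).

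Cd40lg, the T cell ligand that licenses B cells and myeloid cells through CD40, was at 1.28, 1.20, 0.965 and 1.55 CPM in VAT of lean mice and at 3.83, 1.73, 2.40 and 6.68 CPM in that of obese mice. The groups were separate, and obese mouse 4 was the highest. The log2 change of 1.55 ± 0.42 (edgeR adjusted p = 0.0166) was 0.98 (adjusted p = 0.203) without obese mouse 4, and it also lost its call without lean mouse 2 (1.52, adjusted p = 0.0595) or 3 (1.43, adjusted p = 0.0721). SAT held 0.248, 0.141, 0.286 and 0.425 CPM in lean mice and 0.692, 0.530, 0.966 and 0.463 CPM in obese mice, on 1 to 14 counts, with a log2 difference of 1.32 ± 0.58 (edgeR adjusted p = 0.156). Its receptor Cd40 had 2 tested transcripts and neither was called in any comparison.

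Ltb encodes the membrane anchor of the lymphotoxin heterotrimer, which lymphocytes use to organize lymphoid stroma. Lean VAT held 21.8, 8.85, 4.29 and 6.19 CPM and obese VAT 22.6, 20.6, 17.9 and 32.1 CPM. Lean mouse 1, on 34 counts, lay inside the obese range. The change was 1.44 ± 0.40 (edgeR adjusted p = 0.0222), but DESeq2 gave 1.21 with an adjusted p of 0.209. The call was also lost without lean mouse 3 (adjusted p = 0.109) or 4 (0.0784) or obese mouse 1 (0.0527) or 4 (0.099), at 1.16 to 1.41.

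T and B cell markers stood higher in the same libraries. Of the 8 tested T cell transcripts (14 genes in the list), 5 were higher in obese VAT, and the summed list was at 28.2 to 55.7 CPM in VAT of lean mice and 77.1 to 137 in that of obese mice. Of the 8 tested B cell transcripts (12 genes in the list, 10 of them in the table), 3 were higher, and the summed list ran from 44.8 to 318 CPM in lean and from 270.1 to 510.0 in obese mice. VAT of lean mouse 1, the lean library highest in Ltb, was also the lean library highest in both lists. The part of lymphocyte content in these differences was not tested.

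**Figure D3:**
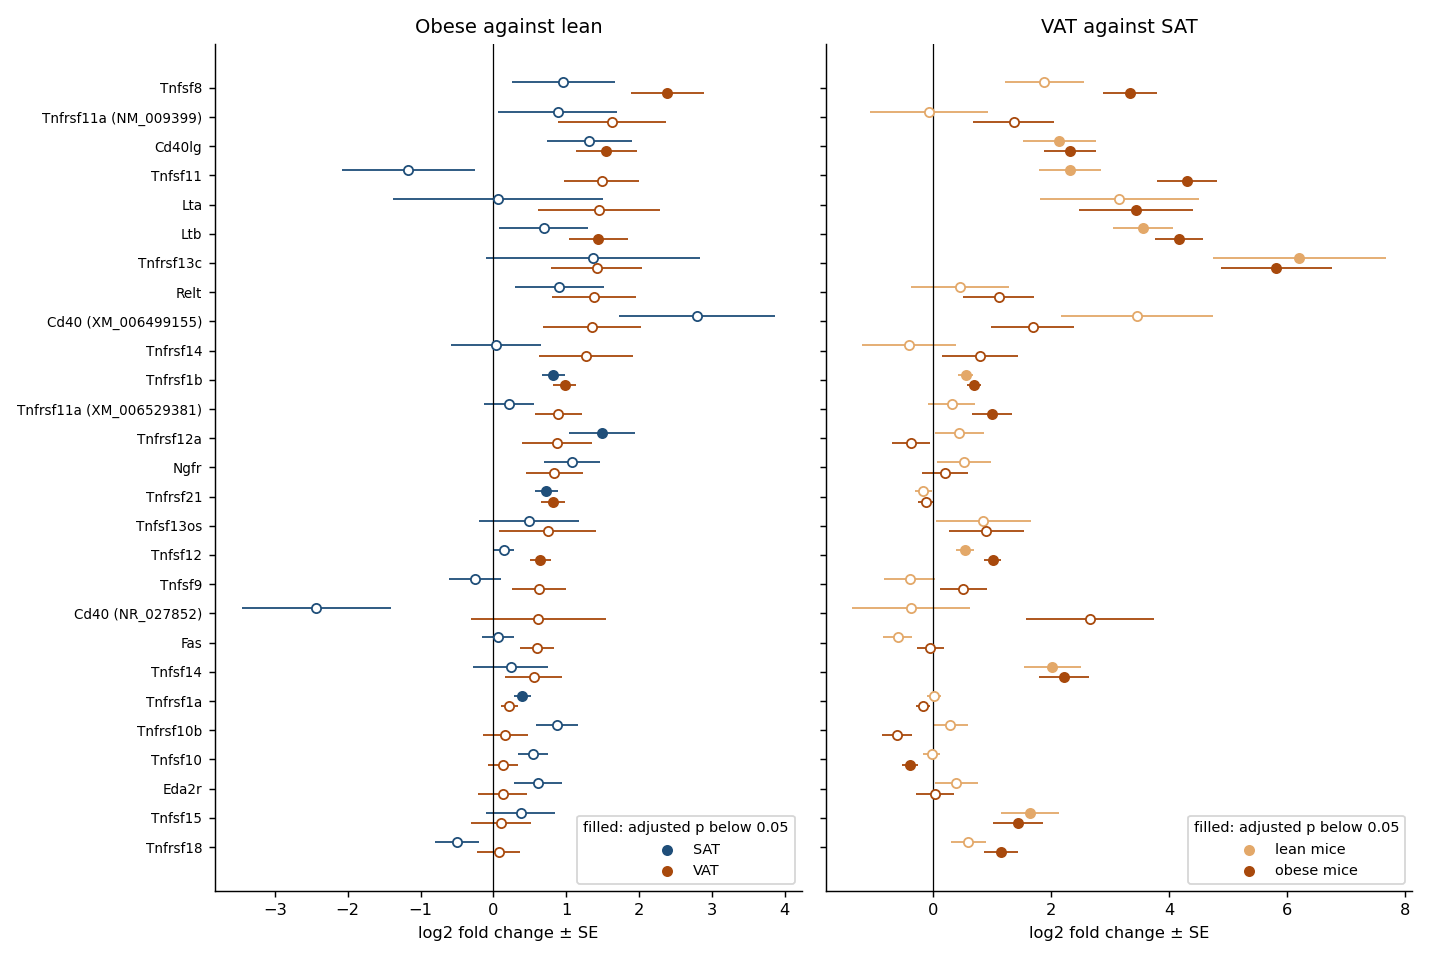
Log2 fold changes with their SE for the 27 tested member transcripts, on the left for obese against lean mice and on the right for VAT against SAT, with filled points for an edgeR adjusted p below 0.05. In VAT all 27 diet changes lie at or right of 0.07. They include Relt (1.38), the lower transcript of Tnfrsf11a (1.63) and Tnfrsf14 (1.27), which passed the filter through obese libraries alone. They also include the noncoding transcript of Cd40 (0.62), whose mean was lower in obese (0.738 CPM) than in lean VAT (1.09 CPM). On the right the called ligands Ltb, Tnfsf11 and Tnfsf8 lie beyond 2 in at least 1 diet, while the Tnfrsf13c value in lean mice rests on 0 counts in SAT.

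Whether the diet response itself differed between VAT and SAT was tested in 1 model with the mouse as a block. edgeR called 0 of the 27 transcripts, against 0.88% of all transcripts higher and 1.29% lower. At an unadjusted p below 0.05 there were 3 (Tnfsf11 and Tnfsf12 with a larger response in VAT, Tnfrsf10b with a larger one in SAT), beside 14.7% of all transcripts, and the smallest adjusted p was 0.233. DESeq2 called 0 with 4 at an unadjusted p below 0.05 and limma voom 0 with 2. Thus a call in one tissue and not in the other, as for Tnfrsf1a, Tnfrsf12a, Tnfsf12, Tnfsf8, Cd40lg and Ltb, was not shown to be a difference between them. Among these members the SE of the difference ran from 0.16 (Tnfrsf1a) to 0.98 (Cd40lg) on the log2 scale.

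Between tissues, most of the called members were ligands. In lean mice, 8 of the 27 transcripts were higher in VAT than in SAT and 0 were lower, against 8% and 6.84% of all transcripts tested. The 8 comprised the 6 ligands Ltb, Tnfsf11, Tnfsf14, Tnfsf12, Cd40lg and Tnfsf15, out of 10 tested, and the receptors Tnfrsf1b and Tnfrsf13c. Among them Tnfsf11, Cd40lg and Tnfrsf13c, and in obese mice also Tnfsf8 and Lta, had passed the filter through VAT libraries alone. The excess of higher over lower members is therefore no support for a direction. All of these except Tnfrsf13c are ligands, so the number of ligands called is no support for a difference between ligands and receptors. For the lower direction, 1 transcript (Fas) had an unadjusted p below 0.05 (27% of all transcripts in either direction), and DESeq2 and limma voom called 0. In obese mice, 12 were higher in VAT and 1, Tnfsf10, was lower, against 15.9% and 13.5% of all transcripts. Those 8 were all among the 12, which added Tnfsf8, Lta, Tnfrsf18 and Tnfrsf11a. An unadjusted p below 0.05 was met by 16 members in obese mice and by 39.8% of all transcripts. Beyond a log2 difference of 1.5, 6 members were called higher in lean and 7 in obese mice, against 3.75% and 6.3% of all transcripts. All 4 VAT libraries lay above all 4 SAT libraries for 6 of the 27 in lean and 12 in obese mice, against 8.87% and 15.1% of all transcripts. Medians over the 27 were 0.52 in lean and 1.00 in obese mice, beside 0.01 and 0.04 over all transcripts tested. The lean median was the same with Tnfrsf13c set to its bound. It could not have moved, since the bound (log2 2.85) also lies above it. Members that passed through VAT libraries alone are in both medians. They are also among the 6 and 7 beyond 1.5 and the 6 and 12 with separate libraries. None of these numbers is therefore support for a direction.

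Ltb had the smallest edgeR adjusted p of the tested members on each diet, while Tnfrsf13c, and in obese mice Tnfsf11, had a larger log2 difference. SAT held 0.661, 0, 0.667 and 2.34 CPM in lean mice and 1.38, 1.59, 1.59 and 0.540 CPM in obese mice. Every VAT library given above was higher than every SAT library of the same diet. The log2 difference was 3.55 ± 0.51 in lean mice (edgeR adjusted p = 2.1e-05) and 4.17 ± 0.41 in obese mice (adjusted p = 7.6e-08). Lta, which pairs with Ltb in the heterotrimer, was at 0.165, 0, 0 and 0 CPM in lean SAT and 0.154, 0, 0.0690 and 0 CPM in obese SAT, on 5 counts in all. Its VAT levels were 1.28, 0.299, 0.107 and 0.110 CPM in lean mice and 1.15, 0.578, 0.0958 and 1.28 CPM in obese mice. Lta was called in obese mice (edgeR adjusted p = 0.00982), where 26 against 3 counts give a ratio of 11.7 with a 95% counting interval of 3.60 to 60.6. It passed the filter with exactly 3 libraries, all of VAT (lean mouse 1 and obese mice 1 and 4), and could not be tested without any 1 of these mice or with the filterByExpr filter.

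Tnfsf14 (LIGHT), another ligand of the lymphotoxin beta receptor, was at 0.744, 0.422, 0.286 and 1.28 CPM in lean SAT and 2.56, 3.17, 2.14 and 2.10 CPM in lean VAT. In obese mice it was at 0.769, 0.530, 0.552 and 1.08 CPM in SAT and 1.15, 2.31, 4.60 and 5.65 CPM in VAT. The VAT value was the higher one in 4 of 4 mice on each diet. The log2 differences were 2.02 ± 0.48 in lean (edgeR adjusted p = 0.00555, but 0.0603 without lean mouse 2) and 2.22 ± 0.42 in obese mice (adjusted p = 3.6e-04). The gene of its receptor, Ltbr, was listed at 0 throughout, and Tnfrsf14 (HVEM), which LIGHT also binds, had 1 tested transcript that was not called in any comparison.

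Tnfrsf13c encodes the BAFF receptor, on which mature B cells depend. No count was found in lean SAT (0 of 4 libraries) and 1 in obese SAT, while lean VAT held 1.92, 0.838, 0.214 and 0.442 CPM and obese VAT 3.83, 1.65, 1.34 and 1.03 CPM. Against the floor of 3 counts over the lean SAT group, lean VAT was at least 7.20-fold higher (edgeR adjusted p = 0.00593). In obese mice, 56 counts in VAT against 1 in SAT give a ratio of 75.8, with a 95% counting interval of 13.1 to 3048 (edgeR adjusted p = 8.9e-05).

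B cell markers followed the same order of tissues. The list summed to 8.9 to 16.7 CPM in SAT and to 44.8 to 510.0 CPM in VAT, with 6 of 8 transcripts higher in VAT in lean and 7 of 8 in obese mice. Ms4a1 and Cd79a were at 0.953 to 4.13 CPM in SAT and at 12.5 to 155 CPM in VAT. Of 7 markers of lymph node structure 4 were tested, and in VAT 2 were higher and 1 lower in lean mice (Ccl21a and Cxcl13 against Mfge8) and 3 higher and 1 lower in obese mice (with Ccl19 added). Glycam1 (high endothelium) did not exceed 0.641 CPM and Cr2 (follicular cells) 0.514 CPM in any library, whereas the chemokine Cxcl13 reached 16.4 CPM in SAT and 170 CPM in VAT, and Ccl21a 0.851 CPM in SAT and 78.4 CPM in VAT. How far B cells or lymphoid tissue carried the Ltb, Lta and Tnfrsf13c differences was not tested.

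Among the T cell costimulatory members, Cd40lg and Tnfsf8 were higher in VAT in 4 of 4 lean and 4 of 4 obese mice, with the values given above. Cd40lg differed by 2.13 ± 0.62 in lean mice (edgeR adjusted p = 0.0213) and 2.32 ± 0.44 in obese mice (adjusted p = 3.6e-04). Without lean mouse 2 (1.90, adjusted p = 0.106) or 3 (2.33, adjusted p = 0.0567), or without both mice of the shallowest VAT libraries (2.09, adjusted p = 0.0566), the lean call was lost. Tnfsf8 differed by 1.88 ± 0.67 in lean (edgeR adjusted p = 0.0608) and 3.33 ± 0.46 in obese mice (adjusted p = 7.3e-06).

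Tnfrsf18 encodes GITR, high on regulatory T cells. It was at 2.81, 6.33, 1.91 and 3.62 CPM in lean SAT and 7.05, 5.32, 4.40 and 5.08 CPM in lean VAT. Obese mice had 2.77, 2.12, 2.97 and 2.16 CPM in SAT and 6.90, 4.79, 4.70 and 6.08 CPM in VAT. The groups were separate in obese mice only, with a log2 difference of 1.15 ± 0.28 there (edgeR adjusted p = 0.00366) and 0.59 ± 0.30 in lean mice (adjusted p = 0.207).

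Tnfsf15 (TL1A), known as a product of endothelium and myeloid cells, was at 0.991, 0.422, 0.953 and 0.851 CPM in lean SAT and 5.12, 3.65, 0.965 and 1.88 CPM in lean VAT. Its obese levels were 1.08, 0.636, 1.73 and 0.772 CPM in SAT and 4.22, 2.48, 2.30 and 2.66 CPM in VAT. It was higher in VAT in every mouse, though by only 0.965 against 0.953 CPM in lean mouse 3. The differences of 1.64 ± 0.50 in lean (edgeR adjusted p = 0.0273) and 1.44 ± 0.43 in obese mice (adjusted p = 0.0136) depended on single mice. The first was lost without lean mouse 1 (1.37, adjusted p = 0.129) or 2 (1.16, adjusted p = 0.228), or without both mice of the shallowest VAT libraries (1.38, adjusted p = 0.128). The second was lost without obese mouse 1 (1.26), 2 (1.30) or 4 (1.33), at adjusted p = 0.0599 to 0.0768, or without both those mice (1.25, adjusted p = 0.0567). Of T cell markers, 3 of 8 tested transcripts were higher in VAT in lean mice and 8 of 8 in obese mice, with sums of 8.1 to 26.8 CPM in SAT against 28.2 to 137 in VAT, and their part in these differences was not tested.

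**Figure D4:**
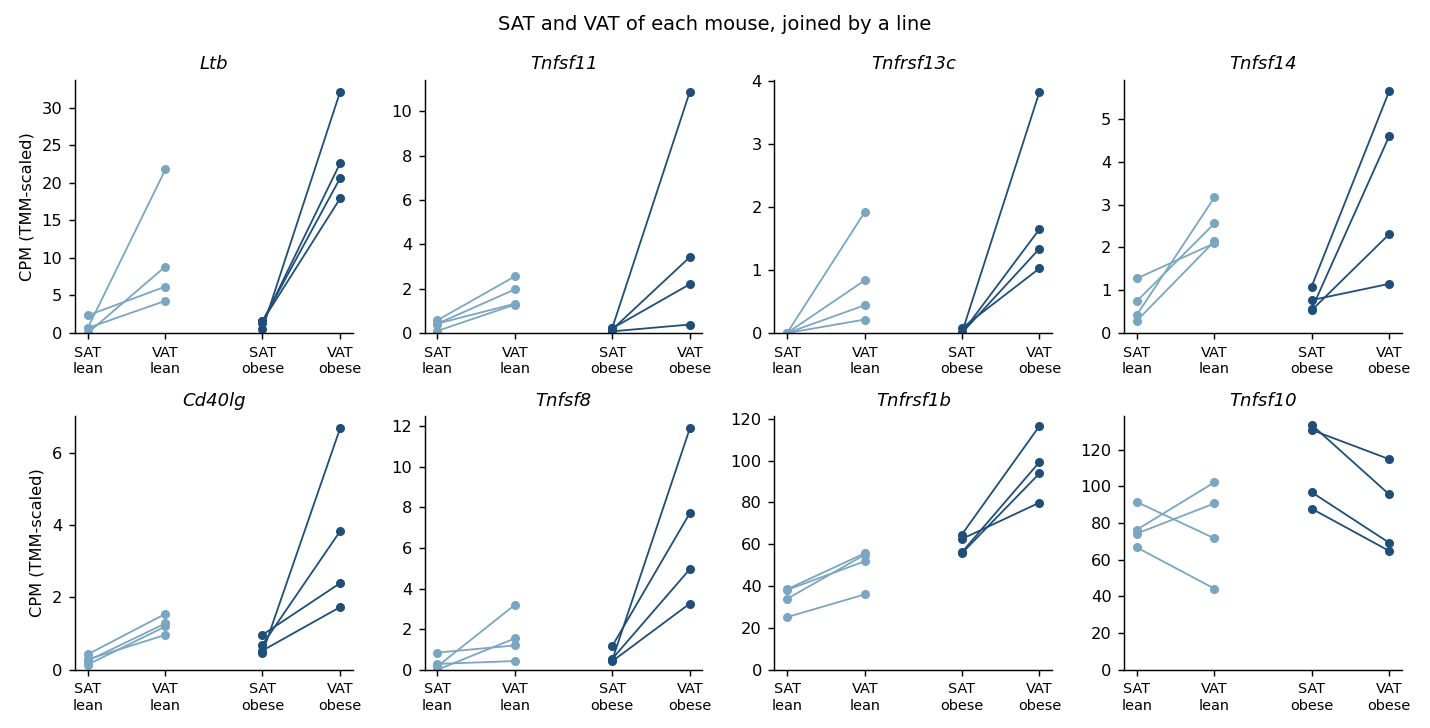
TMM-scaled CPM of 8 members in SAT and VAT, with a line joining both tissues of 1 mouse. Ltb, Tnfsf11, Tnfrsf13c, Tnfsf14, Cd40lg, Tnfsf8 and Tnfrsf1b rise from SAT to VAT in all 8 mice, and Tnfsf10 falls in the 4 obese mice and in 2 of the 4 lean ones.

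Of the members named for bone and tissue repair, Tnfsf11 (RANKL, the osteoclast differentiation factor) was higher in VAT in all 8 mice. Lean mice had 0.578, 0.422, 0.0953 and 0.425 CPM in SAT and 2.56, 1.97, 1.29 and 1.33 CPM in VAT. Obese mice had 0.0769, 0.212, 0.207 and 0.154 CPM in SAT and 0.383, 10.9, 2.20 and 3.43 CPM in VAT, where mouse 2 gave 132 of the counts and mouse 1 gave 1. The VAT libraries were above the SAT libraries on each diet. Differences were 2.31 ± 0.53 in lean (edgeR adjusted p = 0.00382, limma voom adjusted p = 0.0559) and 4.30 ± 0.51 in obese mice (edgeR adjusted p = 1.2e-06).

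Its receptor Tnfrsf11a (RANK) had 2 tested transcripts. The first, XM_006529381, was at 1.23, 1.48, 1.86 and 1.62 CPM in obese SAT and 1.53, 3.71, 2.78 and 4.45 CPM in obese VAT. The difference of 0.99 ± 0.34 (edgeR adjusted p = 0.0304) was lost with DESeq2 (adjusted p = 0.0627), with no filter on low counts (adjusted p = 0.136) and without obese mouse 2 (0.88, adjusted p = 0.134) or 4 (0.80, adjusted p = 0.194). In lean mice it was at 1.32, 1.83, 1.14 and 1.06 CPM in SAT and 0.641, 2.33, 1.61 and 1.66 CPM in VAT, which overlapped.

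Tnfsf12 and Tnfrsf1b, which were described above, were higher in VAT in 8 of 8 mice. Tnfsf12 differed by 0.54 ± 0.15 in lean (edgeR adjusted p = 0.0166) and 1.00 ± 0.15 in obese mice (adjusted p = 1.5e-05). The lean call was lost without lean mouse 2 (0.49), 3 (0.50) or 4 (0.52), at adjusted p = 0.0542 to 0.106, and with no filter on low counts (adjusted p = 0.0683). Tnfrsf1b differed by 0.55 ± 0.13 in lean (edgeR adjusted p = 0.00389) and 0.69 ± 0.12 in obese mice (adjusted p = 1.3e-04). Tnfrsf1b was called with every mouse left out, and macrophage markers were higher in VAT for 5 of 13 transcripts in lean and 11 of 13 in obese mice.

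Tnfsf10, the death ligand TRAIL, was the one member lower in VAT. In obese mice it was at 87.8, 96.8, 131 and 134 CPM in SAT and 64.8, 69.2, 115 and 95.6 CPM in VAT, lower in VAT in 4 of 4 mice while the groups overlapped. Lean mice had 66.7, 91.5, 76.3 and 74.2 CPM in SAT and 44.2, 71.6, 102 and 90.7 CPM in VAT. In obese mice it fell by 0.40 on the log2 scale (SE 0.14, edgeR adjusted p = 0.0342), but this was lost without the mouse block (-0.37, adjusted p = 0.184), with limma voom (adjusted p = 0.101) and without obese mouse 1 (-0.41, adjusted p = 0.0594), 2 (-0.36, adjusted p = 0.112) or 4 (-0.36, adjusted p = 0.132). Its receptor Tnfrsf10b was not called in any comparison, at log2 differences of -0.62 ± 0.25 between tissues in obese mice (edgeR adjusted p = 0.0731) and 0.88 ± 0.29 between diets in SAT (adjusted p = 0.0522).

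**Figure D5:**
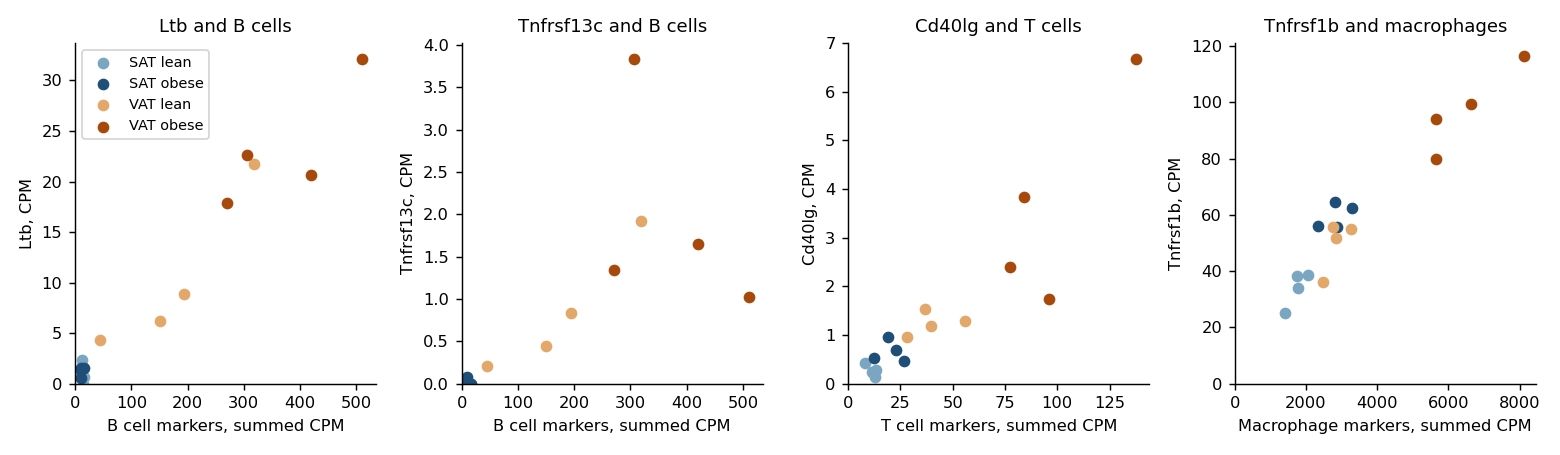
Level of 4 members against the summed level of a marker list in the same library, both in TMM-scaled CPM, with 1 point for each of the 16 libraries. Obese VAT libraries lie at the upper right of the Cd40lg and Tnfrsf1b panels, and the lean VAT library with the most B cell markers (318 CPM) lies beside the obese ones for Ltb and Tnfrsf13c.

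The 22 genes that were not tested held at most 92 counts each over the 16 libraries. The untested ligands were Tnf, Fasl, Tnfsf4, Tnfsf13, Tnfsf13b, Tnfsf18, Eda and Cd70. The untested receptors were Cd27, Edar, Ltbr, Tnfrsf4, Tnfrsf8, Tnfrsf9, Tnfrsf11b, Tnfrsf13b, Tnfrsf17, Tnfrsf19, Tnfrsf22, Tnfrsf23, Tnfrsf25 and Tnfrsf26. Their levels lay at or near the limit of depth in most libraries, and the low values are not read as absence.

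Tnf, the founding ligand, had 46 counts in all. Lean SAT held 1, 0, 0 and 0 counts and obese SAT 6, 4, 9 and 0. Lean VAT held 0, 1, 1 and 3 counts and obese VAT 2, 1, 2 and 16, so 1 library gave most of the last group. Pooled over libraries, obese SAT had 19 counts against 1 in lean SAT, a ratio of 13.1 with a 95% counting interval of 2.08 to 544. Over the mice, mean levels were 0.0207 and 0.377 CPM in lean and obese SAT (exact permutation test, two-sided p = 0.143) and 0.125 and 0.603 CPM in VAT (exact permutation p = 0.2). Adjusted over these 2 tests both were 0.2, and the smallest p that 4 against 4 mice allow is 0.0286. Without a filter on low counts, edgeR gave Tnf a log2 change of 3.27 in SAT with an adjusted p of 0.104.

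Several other low genes passed when all 43411 transcripts with a count were tested without a filter, where 1.99% were called higher in obese SAT, 1.95% higher in obese VAT, 2.33% higher in VAT of lean mice and 4.03% higher in VAT of obese mice. Tnfrsf26, a receptor with few counts, had 1 count in lean VAT and 19 in obese VAT, a ratio of 18.9 with a counting interval of 3.01 to 786 (edgeR adjusted p = 0.0179). Tnfsf4 (OX40 ligand) and its receptor Tnfrsf4 (OX40) sustain T cell responses. In obese mice Tnfsf4 had 37 counts in VAT against 3 in SAT (ratio 16.7, interval 5.29 to 84.7; edgeR adjusted p = 5.7e-04), and 1 transcript of Tnfrsf4 had 36 against 3 (ratio 16.3, interval 5.14 to 82.5; edgeR adjusted p = 0.00183). The other transcript of Tnfrsf4 had 15 counts in obese VAT and 14 in obese SAT (log2 difference 0.08 ± 1.07, edgeR adjusted p = 1), so the difference held for 1 of its 2 transcripts. Tnfrsf19 (TROY) had no count in SAT, 31 counts in lean VAT and 16 in obese VAT, at least 9.70-fold and 7.22-fold higher than the floor of 3 counts per group.

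The pathway downstream of the receptors was read from lists of its known genes. Of 43 genes of TNF receptor signal transduction (adaptors, kinases and NF-κB subunits), 25 had 33 tested transcripts. In SAT 1 was higher in obese mice (Nfkbia, the NF-κB inhibitor IκBα) and in VAT 3 were (Nfkbia, Rel and Nfkbie), with 0 lower in both, beside the 6.2% and 6.82% of all transcripts called higher. The median log2 change was 0.17 in SAT and 0.34 in VAT, beside 0.01 and 0.02 over all transcripts. Between tissues, 3 were higher and 2 lower in VAT in lean mice (8% and 6.84% of all transcripts), and 9 were higher and 5 lower in obese mice (15.9% and 13.5%). Apart from the 9 higher ones in obese mice, these counts lay near or below the share of all transcripts. The higher ones in obese mice included the noncanonical kinase Map3k14 (NIK, which the lymphotoxin beta receptor, RANK and BAFF receptor use) at 0.98 ± 0.17 (edgeR adjusted p = 1.2e-04; chosen after its value was seen), and the lower ones both transcripts of Map3k5 (ASK1).

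Of 21 targets that TNF is known to induce through NF-κB, 17 had a tested transcript. In obese mice 3 were higher in SAT (Lcn2, Vcam1 and Icam1) and 6 in VAT (Vcam1, Icam1, Ccl5, Mmp3, Tnfaip2 and Lcn2), with 0 lower, beside 6.2% and 6.82% of all transcripts called higher. Their median log2 change was 0.44 in SAT and 0.85 in VAT, beside 0.01 and 0.02 over all transcripts. Markers of immune cells were higher in the same obese VAT libraries: 10 of 13 tested transcripts of macrophages, 8 of 10 of lipid-associated macrophages (1 lower, Lpl, which adipocytes also express), 5 of 8 of T cells and 4 of 7 of dendritic cells. In SAT these were 7, 3 (1 lower, Lpl), 1 and 0. Plasma cells had 3 of 6 and mast cells 3 of 5 tested transcripts higher in obese VAT, with 0 higher in obese SAT for both. The dendritic cell list summed to 42.4 to 56.5 CPM in lean and 51.0 to 95.9 CPM in obese VAT, and the lipid-associated macrophage list, with Lpl in it, to 21224 to 29022 and 16472 to 19188 CPM. Their part in the differences of the targets was not tested. Lcn2, an iron-siderophore carrier, went from 2.35 ± 0.973 to 12.7 ± 3.14 CPM (SD, n = 4 each) in SAT, a log2 change of 2.51 ± 0.30 (edgeR adjusted p = 1.3e-05), and Ccl5, a T cell chemokine, from 6.87 ± 2.29 to 23.5 ± 4.68 CPM in VAT, a change of 1.91 ± 0.32 (edgeR adjusted p = 3.1e-04). Between tissues, 5 targets were higher and 1 lower in VAT of lean mice, and 10 higher and 2 lower in VAT of obese mice (8% and 15.9% of all transcripts were called higher), the lower ones being Mmp3 in both and Sod2.

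Genes that process TNF or its message were less covered, with 5 of 11 tested. Adam10, a sheddase of membrane proteins, was the 1 called in SAT, higher in obese mice at 0.82 ± 0.18 (edgeR adjusted p = 0.00353), and 0 were called in VAT, against 6.2% and 6.82% of all transcripts called higher. Between tissues 2 were higher in VAT on each diet, against 8% of all transcripts in lean and 15.9% in obese mice: the mRNA decay factors Zfp36l1 and Zfp36l2 in lean mice, and Zfp36l1 and Zfp36 in obese mice.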

How the data were processed

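The authors deposited 1 table of 130343 RefSeq entries with raw read counts per transcript and CPM for the 16 libraries. Per the labels and the submitters' processing notes, poly(A) RNA was read with a directional kit, and the reads passed through FastQC 0.11.9, Trim Galore 0.6.6, HISAT2 2.2.0, SAMtools 1.11, bedtools 2.29.2, HTSeq 0.13.5 and edgeR 3.34.0 on GRCm39. The deposited CPM equal the counts divided by the library total, without further scaling. The strand setting and the treatment of reads shared by transcripts are not given in the sources used here.

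Of the entries, 106834 (82.0%) were matched to a symbol by accession. Transcripts above 1 CPM in at least 3 of the 16 libraries (13288) were tested with edgeR 4.0.16 (TMM, quasi-likelihood F-test, Benjamini-Hochberg; R 4.3.3). Levels in CPM were computed with TMM-scaled library sizes, whereas the filter and the depth limits (CPM of 1 and of 3 counts) used unscaled totals. Diet was compared over the 4 groups without a block, and tissue and the difference of the responses with the mouse as a block, since methods and numbers place SAT and VAT of 1 mouse together. Deviations from group means correlated at -0.0198 to 0.224 within a mouse and -0.206 to 0.169 between mice of 1 diet. The p-values between diets measure spread between the libraries of a group, with SAT and VAT of 1 mouse treated as independent. Those between tissues and of the difference of the responses measure the spread of the tissue difference over mice, 4 a diet. Replicates correlated at 0.943 to 0.990 and none was a duplicate.

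DESeq2 1.42.0, limma 3.58.1 (voom), RLE factors, other filters, the 8 libraries of 1 tissue alone, counts summed per gene, the block, and each mouse left out were alternatives. Summing without a filter, and leaving out both mice with the shallowest VAT libraries, were chosen after seeing the data. Members were all eligible to be named, and values in each library are given for Tnf, its receptors and every called member. Lists name members called beyond a log2 change of 1.5, and others are named by count only or after their values were seen. The members and lists were chosen with earlier results of these data known. Ratios of low counts carry exact 95% intervals, which cover counting error only. Gene positions are from GENCODE on GRCm39 and promoters from RefSeq.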

Additional observations from a re-analysis of the deposited data

Results flagged for a closer look

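In 5 of 68 groups of 4 libraries (7.35%, over 17 members), 1 library stood far from the other 3 by Dixon's test, where chance gives about 1 in 20. That rate does not apply to 3 of the 5, in which 3 libraries were at 0 and the ratio is then fixed at its highest whatever the count in the other library. Lta stood out in SAT of lean mouse 1 (0.165 CPM, the others at 0) and in VAT of the same mouse (1.28 CPM, in the shallowest library, from 2 counts). Tnf stood out in SAT of lean mouse 1 (0.0826 CPM, from 1 count, the others at 0). Tnfrsf13c stood out in SAT of obese mouse 4 (0.0772 CPM, from 1 count, the others at 0). Tnfsf8 stood out in SAT of obese mouse 4 at 1.16 CPM, from 15 counts, against 0.414 to 0.530 CPM in the others.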

How the results depend on the processing

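Of 31 member calls, 19 were kept under every alternative in which they could be tested. Among 563 recomputed values 516 were still called, 47 kept their direction without a call and 0 reversed. Beyond a log2 change of 1.5, the higher members numbered 0 in obese SAT, 2 in obese VAT and 7 in VAT of obese mice, with 0 lower there. Counts summed per gene without a filter gave 7 higher in obese SAT. With single mice left out, the numbers higher were 2 to 5 in obese SAT, 4 to 7 in obese VAT, 5 to 8 in VAT of lean mice and 9 to 12 in VAT of obese mice, with 0 to 2 lower in the last. The lower count there was 2 with the newer edgeR quasi-likelihood method and 2 without the mice of the shallowest VAT libraries. The cause of these shifts was not tested.

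In the diet comparisons lean and obese mice share only a number, and a replicate block on that number gave 6 higher members in obese SAT and 6 in obese VAT. Between tissues the block is the mouse. Without that mouse block, 8 were higher in VAT of lean mice, and 12 higher and 0 lower in VAT of obese mice, since Tnfsf10 lost its call. Depth limits the low members: 1 count was worth up to 0.796 CPM of the unscaled total.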
